A study of Xenopus laevis with 16 samples.

Results

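Caps that had received foxD5 mRNA were compared with uninjected caps of the same families, both cultured in Noggin. The comparison uses 8 of the 16 arrays of the study, 4 labelled foxD5-noggin and 4 labelled ctl-noggin, chosen by their titles, and all 15491 probe sets that are not Affymetrix controls. In Xenopus laevis embryos, both cells of the 2-cell stage were injected with foxD5 mRNA at 100 pg per cell. Their animal caps were cut at stages 8 to 9, the labels give no such stage for the controls, and both groups were cultured in 200 ng/ml Noggin. The uninjected embryos received no other mRNA, so foxD5 and the act of injecting cannot be told apart here. The other 8 arrays, 4 labelled foxD5 and 4 labelled ctr, hold the same contrast without Noggin, and they share the estimate of the spread.

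The animal cap is the ectoderm of the blastula, and cultured alone it forms epidermis because its cells make BMP ligands and respond to them. Noggin binds BMP ligands outside the cell and keeps them from their receptors, and caps cultured in it turn towards neural ectoderm. FoxD5, now listed under the gene symbol foxd4l1, is a transcription factor with a forkhead domain that early neural ectoderm makes. In Xenopus it is known for holding neural ectoderm in an immature state, with some neural fate genes rising and others falling when it is supplied. This frog is allotetraploid, and symbols ending in .L or .S name the copies of a gene (homeologs) on its long and short subgenomes.

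Each array in Noggin carries total RNA of 100 to 136 pooled caps, and the labels tie each uninjected sample to the injected sample of the same number, which gives 4 pairs. The caps of pair 4 are labelled small in both groups. Caps of pair 1 were harvested at stages 11.5 to 12.5 in both groups. In pairs 2, 3 and 4 the labelled harvest of the injected caps ended or lay later, at 11.5 to 12.5 against 11.5 to 12.0, 12.0 to 12.5 against 11.5 to 12.0, and 12.5 against 12.0 to 12.5. Nothing in the labels says that the pairs came from separate clutches, and the spread that p-values measure may be technical. In such pooled tissue, fewer cells of a type and less RNA per cell cannot be told apart. The labels name a source tissue, cochlea of a whole animal, that contradicts their own descriptions. None of the inner ear hair cell markers listed for that tissue could be matched to a probe set, so it could not be checked, and the descriptions were followed.

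Animal cap ectoderm was present on every array: the summed deposited signal of 17 measured ectoderm and epithelium markers was 13810 to 16188 in injected caps and 13181 to 23171 in controls. Mean signals were under 16 for 10 of 14 muscle markers, 13 of 14 blood and vessel markers and 7 of 10 endoderm markers, and none of these passed the test. The control of pair 2 stood apart from the other controls. Relative to each gene's mean over the 8 arrays, its median over 34 measured epidermis genes was 1.01 on the log2 scale, against -0.30 to 0.24 in the other controls, its median over 15 neural fate genes was -0.89 against 0.00 to 0.43, and that over 7 cement gland markers was 0.79 against -0.39 to -0.03. Injected 2 leaned the same way among the injected arrays, by less. Its medians were 0.22 against -0.60 to -0.14 for epidermis, -0.32 against -0.20 to 0.26 for neural fate and 0.28 against -0.50 to -0.08 for cement gland. Results are therefore also given without pair 2 where it matters.

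In Noggin, foxD5-injected caps had more RNA of a fibroblast growth factor (fgf8.L), a T-box factor (vegt.L), Hes repressors, a matrix protease (mmp14.L), a sterol reductase (dhcr7.S) and heme oxygenase (hmox1.L). They had less RNA of forkhead genes of non-neural ectoderm (foxi1.L, foxi4.2.L), a BMP ligand (bmp7.2.L) and histidine ammonia-lyase (hal.1.L). In limma's fit with pair as a block on log2(signal + 16), 49 of 15491 probe sets (0.316%) passed an adjusted p of 0.05, 37 of them higher (0.239%) and 12 lower (0.0775%). All 49 moved the same way in 4 of 4 pairs, as did 20.4% of all probe sets. The 4 injected and 4 control signals did not overlap for 32 of the 49, against 2.21% of all probe sets. Changes of over 2-fold were fitted for 29 of the higher and 10 of the lower probe sets. The smallest change was 0.78 on the log2 scale. The mean control signal was under 16 for 8 of the 37 higher probe sets, and the mean injected signal for 1 of the 12 lower ones. At an unadjusted p of 0.05, 608 probe sets were higher and 533 lower.

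**Figure D1:**
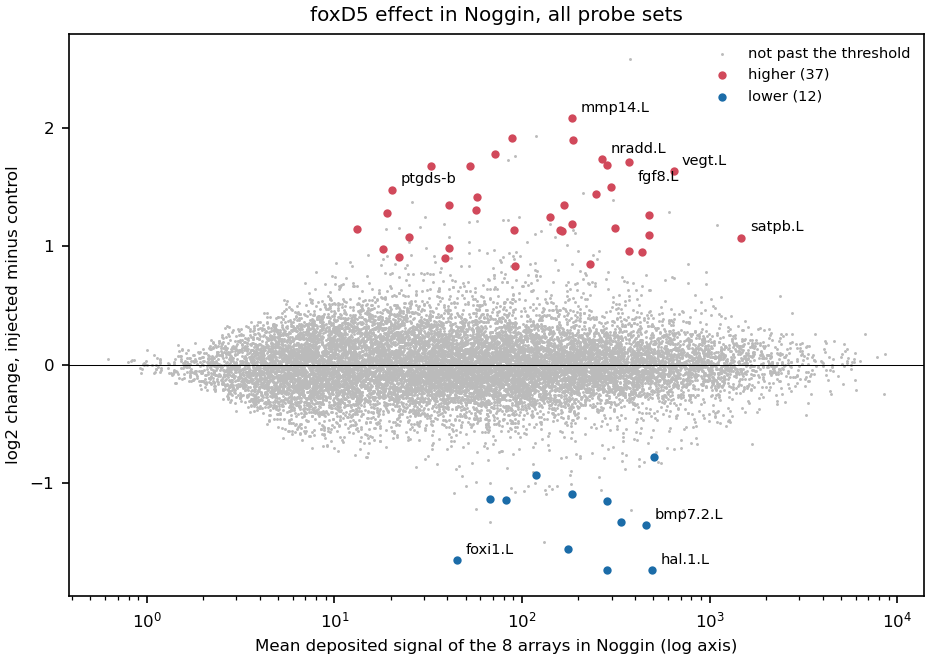
Change of every probe set in Noggin (vertical axis, log2, injected minus control) against its mean deposited signal over 8 arrays (horizontal log axis). Red points are the 37 higher and blue points the 12 lower probe sets past an adjusted p of 0.05, and grey points the rest, which include larger changes with a wider spread such as that of egr1.L at 2.58.

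The count rests on the pairing and on all 4 pairs. Without the pair term 3 probe sets passed, with a pseudocount of 1 in place of 16 only 1 did, and leaving out pair 1, 2, 3 or 4 gave 6, 5, 18 or 7 calls, of which 6, 5, 13 and 6 were among the 49. Without pair 2, the 49 changes kept their sign and were 0.77 to 1.15 times their size over all pairs. Their limma p-values were at most 0.00159 unadjusted and 0.00527 to 0.357 adjusted. The 49 were selected on all 4 pairs and this fit reuses 3 of them, so it is no independent check. Of the 49, 4 passed in all 4 fits that left out a pair, among them nradd.L and hal.1.L, and 33 passed in none. The 33 include fgf8.L, vegt.L, foxi1.L, foxi4.2.L and bmp7.2.L, while mmp14.L, dhcr7.S and hmox1.L each passed in 1.

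The platform annotation gives 1 gene symbol to 34 of the 49 probe sets, 27 higher and 7 lower. Homeologs are alike in sequence, and how far a probe set reads both copies was not tested. Among the rises, signalling and transcription factor genes come first. The fibroblast growth factor gene fgf8.L had deposited signals of 539, 507, 604 and 633 in injected caps 1 to 4 and 95.4, 94.2, 221 and 288 in controls 1 to 4. Every injected array lay above every control, and the injected values were closer together than the controls. The change was 1.71 ± 0.27 (SE, limma adjusted p = 0.0238). Its other probe sets were dimmer and did not pass, with changes of 0.53 ± 0.18 (adjusted p = 0.463) and 0.18 ± 0.19 (adjusted p = 0.872).

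The T-box gene vegt.L encodes a transcription factor known in Xenopus for starting endoderm and mesoderm in the vegetal part of the egg. Its signals were 776, 569, 1182 and 1324 in injected caps and 185, 119, 444 and 546 in controls. The groups did not overlap, although control 4 came close to injected 2, and pairs 3 and 4 were higher than pairs 1 and 2 in both groups. The change was 1.64 ± 0.27 (SE, limma adjusted p = 0.0314), and its homeolog vegt.S, at a mean signal of 20.3 against 10.1, gave 0.44 ± 0.21 (adjusted p = 0.682). The hairy/enhancer-of-split gene hes7.2.L, which encodes a repressor of the family that answers to Notch, gave 75.5, 83.0, 51.4 and 27.4 in injected caps and 9.43, 12.5, 0.962 and 2.46 in controls. All controls were under the level of 16 that was added before taking logs, and detection calls were not used here, so no ratio is given; the fitted change was 1.68 ± 0.23 (SE, limma adjusted p = 0.0181). A second probe set of hes7.2.L was at 1.25 ± 0.24 (adjusted p = 0.064).

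The related hes7.1.L rose too, at 0.99 ± 0.18 (SE, limma adjusted p = 0.0437), with mean signals of 59.0 ± 18.9 against 22.3 ± 14.3 (SD, n = 4 each). Its brighter probe set was at 1.93 ± 0.51 (adjusted p = 0.242), with 4.37 in pair 2 and 0.76 to 1.60 in the other pairs. Transcription factor genes with smaller rises were pou2f1.S, a widely expressed POU domain factor, at 1.16 ± 0.19 (adjusted p = 0.0292), sp5l.S, a zinc finger factor of the Sp family, at 1.13 ± 0.21 (adjusted p = 0.047), and jund.S, a member of the AP-1 complex, at 1.13 ± 0.15 (adjusted p = 0.014). Of these, pou2f1.S and sp5l.S had groups that did not overlap, while the injected and control ranges of jund.S did. Both other probe sets of sp5l.S were also higher without passing, at 0.92 ± 0.22 (adjusted p = 0.166) and 0.46 ± 0.27 (adjusted p = 0.732).

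Genes of the cell surface and the matrix held the largest rise with a gene name. Signals of mmp14.L, which encodes a matrix metalloproteinase anchored in the cell membrane, were 312, 511, 91.6 and 356 in injected caps and 39.5, 74.8, 27.9 and 61.3 in controls. Injected 3 was the lowest of its group but still above the highest control, which was control 2. The change was 2.08 ± 0.27 (SE, limma adjusted p = 0.0131). The ratio of mean deposited signals, a different measure taken without logs or normalisation, was 6.25. The gene nradd.L, which encodes a relative of the neurotrophin receptor with a death domain, gave 365, 369.8, 433 and 496 in injected caps and 109.9, 49.5, 166 and 152 in controls. Control 2 was far below the other controls and the groups were well apart, with a change of 1.73 ± 0.20 (SE, limma adjusted p = 0.00557) over all pairs and 1.49 ± 0.20 without pair 2.

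The alkaline phosphatase gene alpl.L had 76.3, 104, 34.8 and 145 in injected caps and 29.2, 6.83, 9.96 and 15.7 in controls. Injected 3 was only slightly above control 1, and the changes were 2.41 and 2.42 in pairs 2 and 4 against 1.03 and 0.85 in pairs 1 and 3. Controls 2, 3 and 4 were under 16. The fit gave 1.68 ± 0.31 (SE, limma adjusted p = 0.047). Rises were also called for epha2.L, an ephrin receptor gene, at 0.96 ± 0.16 (adjusted p = 0.0347), chrng.L, an acetylcholine receptor subunit gene known from muscle, at 1.07 ± 0.16 (adjusted p = 0.0182), and cpne3.L, a gene of the calcium-binding copines, at 1.24 ± 0.18 (adjusted p = 0.0198). The signals of chrng.L were low, 38.7 ± 19.3 against 11.2 ± 12.0 (SD, n = 4 each), and its groups overlapped, as did those of cpne3.L. A second probe set of cpne3.L was at 0.79 ± 0.19 (adjusted p = 0.172).

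The sterol reductase gene dhcr7.S, whose enzyme acts in the last step of cholesterol synthesis, gave 97.4, 183, 83.0 and 121 in injected caps and 14.9, 24.3, 36.5 and 15.5 in controls. All injected arrays were above all controls, and pair 3, with the lowest injected and the highest control value, changed least. Its change was 1.78 ± 0.28 (SE, limma adjusted p = 0.0237). Heme oxygenase, the enzyme that breaks down heme, is encoded by hmox1.L, with 753, 454, 159 and 408 in injected caps and 237, 88.4, 56.2 and 101 in controls. Injected 3 was below control 1, so the groups overlapped, but each injected sample was above its own control and the change was 1.69 ± 0.22 (SE, limma adjusted p = 0.0135). Its homeolog hmox1.S was dim, at a mean signal of 11.4 against 8.39, and did not pass, at 0.06 ± 0.19 (adjusted p = 0.961).

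The ambp.L gene encodes a precursor of a heme-binding plasma protein and of the protease inhibitor bikunin. Its signals were 285, 151, 304 and 789 in injected caps and 153, 45.2, 107 and 159 in controls. Injected 4 was the highest by far, injected 2 lay below controls 1 and 4, and the fit gave 1.44 ± 0.21 (SE, limma adjusted p = 0.0198). The other probe sets annotated to ambp.L, 4 in number and dimmer, were at -0.10 to 0.06 without passing. The glucose transporter gene slc2a1.L had 76.5, 73.1, 90.1 and 127 in injected caps and 25.7, 35.6, 16.6 and 16.1 in controls. The groups were clearly apart, and pair 4 moved most. This probe set gave 1.42 ± 0.21 (SE, limma adjusted p = 0.0203), whereas a brighter one for slc2a1.L gave 0.29 ± 0.18 (adjusted p = 0.743), so its probe sets disagree.

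Prostaglandin D synthase of the lipocalin type is encoded by ptgds-b, which had 41.9, 32.5, 19.2 and 56.8 in injected caps and 9.04, 1.7, 1.06 and 0.719 in controls. All controls were under 16 and control 1 was the highest of them, so no ratio is given here either, and the fitted change was 1.48 ± 0.17 (SE, limma adjusted p = 0.00602). The immunophilin gene fkbp1b.L, whose product binds calcium release channels, had 70.1, 63.9, 56.5 and 65.4 in injected caps and 36.2, 2.00, 8.25 and 23.5 in controls. The injected values lay close together and the controls were widely spread, from control 2 up to control 1. The change was 1.35 ± 0.23 (SE, limma adjusted p = 0.0331), and the dimmer probe sets of fkbp1b.L and fkbp1b.S, 3 in number, were at -0.04 to 0.17 without passing.

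The remaining rises with a symbol were smaller. Among transporters and stress genes, slc43a2.L, a neutral amino acid transporter gene, was at 1.35 ± 0.19 (adjusted p = 0.0181), with its homeolog slc43a2.S at 0.81 ± 0.20 (adjusted p = 0.172), and the p53 target gene sesn1.L, a sestrin, was at 1.09 ± 0.17 (adjusted p = 0.0203). A second, dimmer probe set of sesn1.L was at 0.49 ± 0.22 (adjusted p = 0.664). The neuronal RNA-binding protein gene elavl3.L was dim, with 33.6 ± 16.1 against 4.52 ± 5.62 (SD, n = 4 each), and rose by 1.28 ± 0.23 (adjusted p = 0.047). The small GTPase gene rab40b.L was at 1.14 ± 0.18 (adjusted p = 0.027) and its second probe set at 0.64 ± 0.18 (adjusted p = 0.308). The septin gene septin12.S was at 0.83 ± 0.15 (adjusted p = 0.047), glipr2.S at 0.91 ± 0.16 (adjusted p = 0.0447), satpb.L at 1.07 ± 0.19 (adjusted p = 0.0427) and XB5748694.L at 0.95 ± 0.16 (adjusted p = 0.0393). The brightest of all named rises was satpb.L, whose means were 1944 ± 794 against 1009 ± 614 (SD, n = 4 each) and whose groups overlapped. A second probe set of septin12.S, near 10 in signal, was at 0.10 ± 0.20 (adjusted p = 0.939).

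The falls with a symbol were 7. Histidine ammonia-lyase, which starts the breakdown of histidine, is encoded by hal.1.L, with 270.1, 359.8, 55.5 and 158 in injected caps and 831, 1536, 265 and 468 in controls. Levels differed between pairs by more than 3-fold in both groups, so the ranges overlapped, but the change was -1.59, -1.95, -1.91 and -1.50 in pairs 1 to 4. It was the gene with the smallest adjusted p of all named genes, at -1.74 ± 0.18 (SE, limma adjusted p = 0.00225).

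The forkhead gene foxi1.L, known in Xenopus for the ionocytes of the epidermis, had 13.8, 22.2, 0.92 and 2.5 in injected caps and 104, 165, 25.3 and 27.8 in controls. All injected arrays were below all controls, with injected 2 close to control 3. The injected mean was under 16, so no ratio is given, and the fitted change was -1.66 ± 0.28 (SE, limma adjusted p = 0.0347). Its relative foxi4.2.L, a forkhead gene of early ectoderm in Xenopus, had 215, 187, 129 and 118 in injected caps and 622, 463, 359 and 184 in controls. Control 4 was the lowest control and lay below injected 1 and injected 2. The change was -1.15 ± 0.20 (SE, limma adjusted p = 0.0363), that of the brighter homeolog foxi4.2.S was -0.64 ± 0.25 (adjusted p = 0.572), and a dim second probe set of foxi4.2.L gave 0.19 ± 0.18 (adjusted p = 0.846).

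The BMP ligand gene bmp7.2.L had 240.4, 385, 159.8 and 145 in injected caps and 545, 1430.4, 408 and 371 in controls. Control 2 was more than 2-fold above the other controls, and injected 2 lay above control 4, but each injected sample was below its own control. The change was -1.36 ± 0.21 (SE, limma adjusted p = 0.0203). For fgfr4.S, which encodes a receptor of fibroblast growth factors, signals were 35.8, 47.1, 31.9 and 60.5 in injected caps and 113, 177, 81.6 and 113 in controls. The groups did not overlap and the change was -1.14 ± 0.20 (SE, limma adjusted p = 0.0397). Both probe sets of its homeolog fgfr4.L were lower without passing, at -0.94 ± 0.19 (adjusted p = 0.0863) and -0.59 ± 0.20 (adjusted p = 0.463).

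Signals of hs3st1.L, which encodes a sulfotransferase of heparan sulfate, were 31.3, 40.0, 41.1 and 26.7 in injected caps and 71.8, 156, 98.1 and 72.9 in controls. Injected values were all below the lowest control, and control 2 was the highest. Its change was -1.14 ± 0.16 (SE, limma adjusted p = 0.0181). The Krüppel-like factor gene klf2.S gave 149, 118, 107 and 71.8 in injected caps and 278, 324, 253 and 175 in controls. These groups did not overlap, the change was -1.09 ± 0.18 (SE, limma adjusted p = 0.0314), and a dimmer probe set of klf2.S gave -0.51 ± 0.22 (adjusted p = 0.626).

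**Figure D2:**
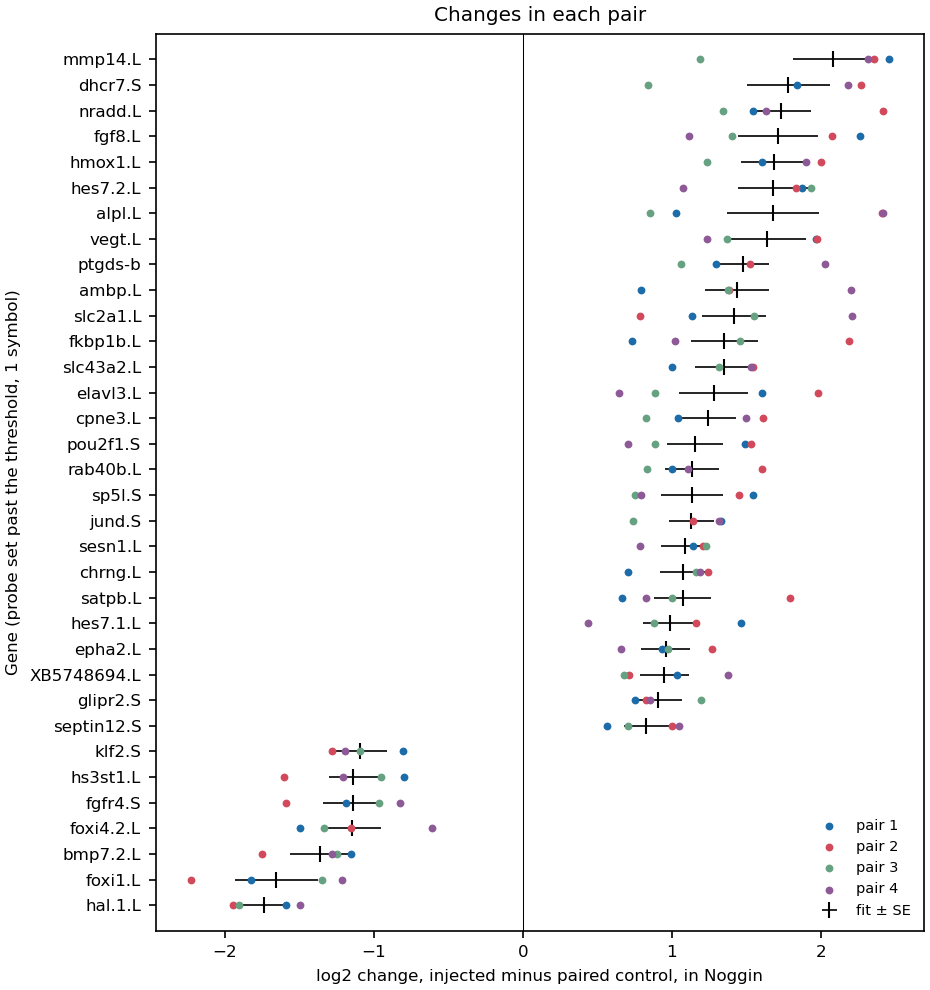
Changes of the 34 probe sets with a gene symbol that passed in Noggin, 1 row each (horizontal axis, log2, injected minus paired control). Coloured points are the 4 pairs and black bars the fitted change ± SE; every point lies on the side of its fit, and pair 2 is often farthest from 0.

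The pairs differed in the size of the response. Over the 37 higher probe sets the median change was 1.19, 1.61, 1.00 and 1.19 in pairs 1 to 4, and over the 12 lower ones -1.17, -1.60, -1.29 and -1.07. Pair 2 held the largest change for 21 of the 37 and 9 of the 12, and pair 3 the smallest for 19 of the 37. In pair 1, whose samples carry the same labelled stages, the 37 ran from 0.54 to 2.46 and the 12 from -1.97 to -0.64. These are values of the probe sets selected on all 4 pairs. In pairs 2 to 4 stage and injection cannot be told apart.

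Of the 49 probe sets, 14 carry no symbol, 10 higher and 4 lower, and 1 lower probe set is annotated to both homeologs of a gene. The smallest p of all belongs to one without a symbol, at 306 against 66.9 in mean signal and a change of 1.90 ± 0.16 (SE, limma adjusted p = 0.000578). Another without a symbol was at 148 against 29.5 and 1.91 ± 0.20 (adjusted p = 0.00225). Both also passed in every fit that left out a pair.

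Genes of the epidermis and of BMP signalling were mostly lower. Of 34 measured epidermis and non-neural ectoderm genes, 2 fell, 0 rose and 32 did not pass. The falls were those of foxi1.L and foxi4.2.L, and over all 7531 genes with a symbol 7 fell and 23 rose. The median change was -0.20 and 26 of 34 were negative, beside a median of -0.01 and 48.2% positive over all probe sets. Transcription factors of non-neural ectoderm led the members that did not pass: tfap2a.L at -1.23 ± 0.24 (adjusted p = 0.0666), grhl3.L at -0.71 ± 0.17 (adjusted p = 0.145), klf17.L at -0.83 ± 0.19 (adjusted p = 0.152) and gata2.L at -1.03 ± 0.28 (adjusted p = 0.275). Each was lower in 4 of 4 pairs, and tfap2a.L had mean signals of 203 in injected caps and 561 in controls without overlap of the groups. The 12 keratin genes of the list, the structural proteins of epidermis, had a median of -0.12 with none passing, and the other 22 genes a median of -0.57.

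The shift of the epidermis list varied between pairs, with medians of -0.44, -0.84, -0.15 and -0.03, and the summed signal of the list was highest in control 2, at 33223, against 13241 to 19147 in the other controls. The list's median was -0.14 without pair 2 and -0.47 without pair 4. Of 42 measured BMP ligands, receptors, antagonists and direct targets, bmp7.2.L fell, 0 rose and 41 did not pass. The median was -0.22, 31 of 42 were negative, and the pairs gave -0.27, -0.31, -0.22 and -0.24, a narrower range than for the epidermis list. Targets of BMP signalling were among the lowest members without passing. The genes of the secreted feedback inhibitor Sizzled, szl.L and szl.S, were at -1.33 ± 0.27 (adjusted p = 0.0808) and -1.23 ± 0.29 (adjusted p = 0.155), the homeobox gene msx1.L at -1.03 ± 0.27 (adjusted p = 0.251) and the inhibitory Smad gene smad7.L at -0.67 ± 0.20 (adjusted p = 0.36). A further probe set, which by its identifier belongs to the same sequence cluster as that of szl.L, did pass, at -1.74. It was not given exactly 1 symbol, so the list leaves it out.

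In the FGF list of 22 measured genes, fgf8.L rose, fgfr4.S fell and 20 did not pass. The median was 0.22, with 16 of 22 positive, and it was 0.12 without pair 2. At an unadjusted p of 0.05 the list held 9 higher and 3 lower members, beside 7.1% of all genes in either direction. The immediate early gene egr1.L, which FGF signalling is known to switch on, had the largest change, 2.58 ± 0.59 (adjusted p = 0.136). Its pairs differed widely, at 3.42, 3.44, 0.95 and 2.50, and its means were 641 against 114 without overlap of the groups. The feedback inhibitor genes spry2.S and dusp6.L were at 0.89 ± 0.19 (adjusted p = 0.103) and 0.67 ± 0.17 (adjusted p = 0.19), without overlap either, at mean signals of 32.6 against 11.0 and 34.6 against 15.4. The homeolog spry2.L, at mean signals of 14.1 against 15.0, was at 0.00 ± 0.19 (adjusted p = 0.998). The Notch list of 24 genes held no call, since each gene is read there from the probe set with the highest mean over all 16 arrays and the hes7 calls were made on other probe sets. Its median was 0.08.

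Among mesoderm and endoderm genes, vegt.L is the only call in 43 and 31 measured members. The medians were -0.01 and -0.03, and 24 and 20 of the members had mean signals under 16. The Wnt ligand gene wnt11b.L, known for cell movements of gastrulation, was at 1.22 ± 0.26 (adjusted p = 0.0989), the forkhead gene foxa4.L of the axial midline at 0.75 ± 0.15 (adjusted p = 0.081), and foxf1.L, a gene of lateral mesoderm, at -0.75 ± 0.17 (adjusted p = 0.136). Mean signals of foxa4.L were low, at 16.2 against 3.34, and its dim homeolog foxa4.S was at 0.20 ± 0.24 (adjusted p = 0.884). The Wnt list holds sp5l.S, but reads it from a probe set other than the called one. In the Nodal and TGF-beta list of 29 genes, the Wnt list of 58 and the Hedgehog list of 14, none passed on the probe set read for the list, and the medians were 0.06, 0.07 and 0.05. Besides those already given, the Wnt members of smallest p were fzd2.S, a Frizzled receptor gene, at 0.74 ± 0.17 (adjusted p = 0.127) and ror2.L, a Wnt co-receptor gene, at 1.13 ± 0.27 (adjusted p = 0.155). In the Nodal and Hedgehog lists they were inhbb.L, an Activin subunit gene, at 0.66 ± 0.16 (adjusted p = 0.178) and smo.L, the Hedgehog signal transducer gene, at 0.75 ± 0.21 (adjusted p = 0.311). Lower values without passing included dvl3.L of the Wnt list at -0.75 ± 0.19 (adjusted p = 0.237) and gli3.L of the Hedgehog list at -0.77 ± 0.22 (adjusted p = 0.336). The dimmer homeolog smo.S was at 0.08 ± 0.28 (adjusted p = 0.97).

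Of 43 posterior and retinoic acid genes none passed and the median was 0.00. The forkhead gene foxb1.S was at 1.73 ± 0.34 (adjusted p = 0.0685), higher in 4 of 4 pairs with means of 137 against 31.4, and the homeobox genes hoxa3.S and cdx1.S were at 0.76 ± 0.17 (adjusted p = 0.116) and 1.16 ± 0.33 (adjusted p = 0.314). None of 30 anterior neural and cement gland genes, 26 organizer genes or 30 neural crest and border genes passed. Their medians were -0.05, -0.04 and -0.09, and that of the anterior list was 0.075 without pair 2. Of 36 neuronal differentiation genes elavl3.L alone rose, and the tubulin gene tubb2b.S was at 1.08 ± 0.23 (adjusted p = 0.103) with 2.2 in pair 4 and 0.45 to 0.94 in the other pairs. The list's median was 0.02, and -0.02 without pair 3. Of 21 ciliated cell, ionocyte and secretory cell genes foxi1.L alone fell, with a median of -0.16, and of -0.04 without pair 2.

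**Figure D3:**
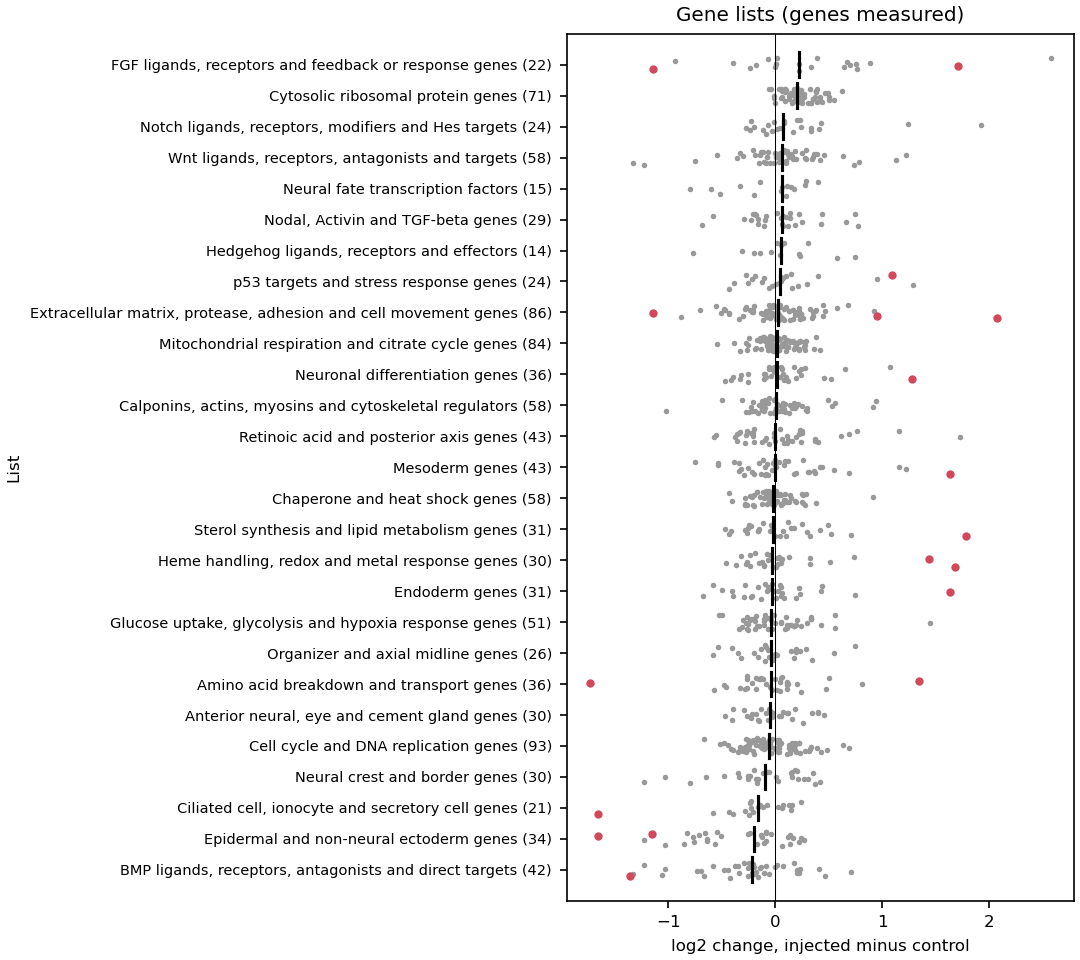
Changes in Noggin for the measured genes of 27 lists, 1 point per gene (horizontal axis, log2, injected minus control); red points passed the test, black bars are list medians and numbers in brackets count the genes. The BMP and epidermis lists have the lowest medians, -0.22 and -0.20, and the FGF and ribosomal protein lists the highest, 0.22 and 0.21.

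Neural fate is the subject of the study's title. None of 15 measured neural fate transcription factor genes passed, their median was 0.07, and 9 were positive. The injected gene's own probe sets come first. Signals of foxd4l1.1.S were 101, 79.9, 16.1 and 169 in injected caps and 59.1, 11.3, 39.6 and 255 in controls. The groups overlapped fully, the pairs went both ways, and the change was 0.28 ± 0.40 with a 95% interval of -0.60 to 1.16. Those of foxd4l1.2.L were 2.04, 0.776, 1.02 and 15.4 in injected caps and 16.5, 9.28, 1.31 and 11.0 in controls, all near or under 16, with a change of -0.33 ± 0.17 and an interval of -0.71 to 0.04. Whether these probe sets can read the injected mRNA is not given in the sources used here, so they do not check the labels.

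An unadjusted p under 0.05 was found for 3 of 15 members of the neural fate list, beside 7.1% of all genes, each with a negative value, and none of them passed. The Iroquois homeobox gene irx1.L had 31.0, 61.4, 46.3 and 71.6 in injected caps and 76.2, 77.0, 83.8 and 111 in controls. Every injected array was below every control, and the change was -0.60 ± 0.16 (adjusted p = 0.243). The zinc finger gene zic1.S had 231, 158, 346 and 365 in injected caps and 466, 155, 619.8 and 1043 in controls. Pair 2 did not move, pairs 1, 3 and 4 were lower, and the fit gave -0.80 ± 0.23 (adjusted p = 0.321). The gene of Geminin, a regulator of replication and of neural fate, was at -0.52 ± 0.20 for gmnn.S (adjusted p = 0.543) and at 0.17 ± 0.24 for gmnn.L, with an interval of -0.35 to 0.70.

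The Sox genes of neural progenitors gave intervals on both sides of 0. For sox2.L the change was 0.29 ± 0.26 (-0.28 to 0.86), made of 1.55 in pair 2 and -0.34 to 0.24 in the other pairs. For sox3.S, sox3.L, sox11.S and sox15.L it was 0.07 ± 0.21 (-0.40 to 0.53), 0.11 ± 0.26 (-0.44 to 0.67), 0.14 ± 0.19 (-0.27 to 0.56) and 0.10 ± 0.17 (-0.26 to 0.47). The zic2.L and zic2.S genes were at -0.20 ± 0.24 (-0.73 to 0.33) and 0.06 ± 0.19 (-0.36 to 0.48), and irx2.L and irx3.L at -0.14 ± 0.16 (-0.49 to 0.21) and 0.40 ± 0.20 (-0.04 to 0.84). These intervals leave room for changes of up to about 1 on the log2 scale, so the data do not show that these genes stayed level. Several positive values rested on pair 2. Without pair 2 the list's median was -0.13, and sox2.L, sox3.S, sox11.S, zic2.S, gmnn.L and foxd4l1.1.S had negative changes.

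**Figure D4:**
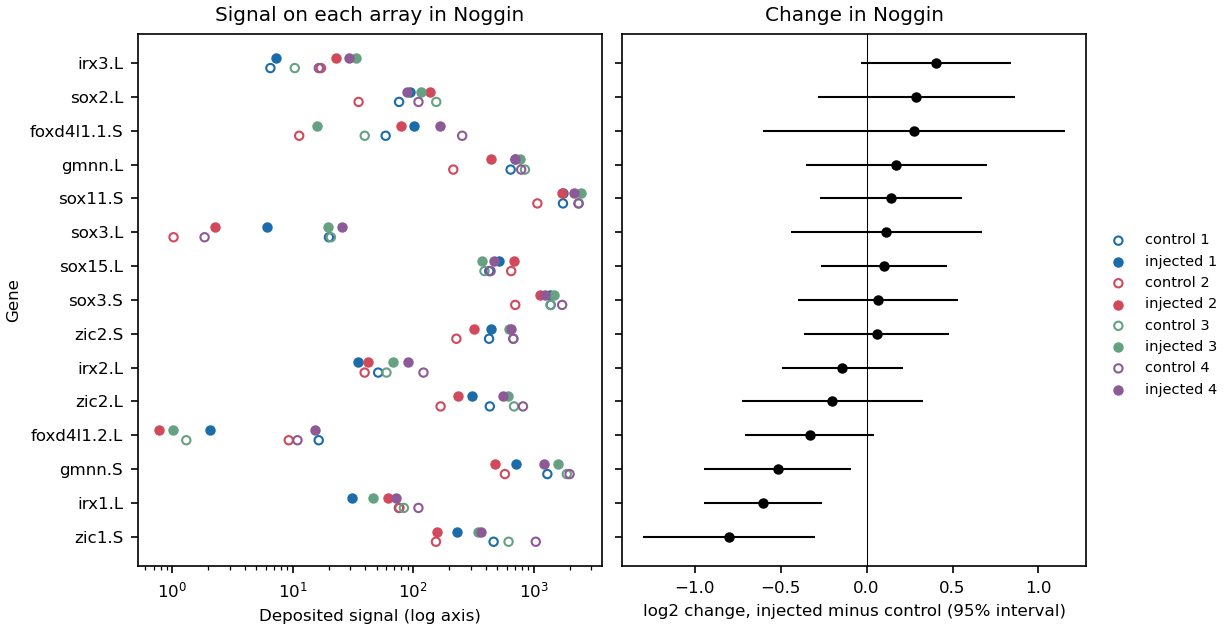
Deposited signal of the 15 neural fate genes on each of the 8 arrays in Noggin (left, log axis; open circles are controls and filled circles injected caps, coloured by pair) and the fitted change with its 95% interval (right, log2). Only irx1.L has injected and control signals apart, and control 2 is the lowest or near the lowest point for most genes.

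Of 31 sterol and lipid genes dhcr7.S rose, and of 30 heme, redox and metal response genes hmox1.L and ambp.L rose. Of 24 p53 target and stress genes sesn1.L rose, and of 36 amino acid genes slc43a2.L rose and hal.1.L fell. Over all 7531 genes with a symbol 23 rose and 7 fell. The medians of these lists were -0.02, -0.03, 0.05 and -0.04, beside -0.01 over all genes, so the lists as a whole did not shift with their called members. The p53 targets plk2.S and ccng1.L were at 0.95 ± 0.20 (adjusted p = 0.088) and 1.29 ± 0.29 (adjusted p = 0.136). The dim homeolog plk2.L was at 0.06 ± 0.25 (adjusted p = 0.974). Next by p in the p53 and stress list were btg1.S at 0.30 ± 0.14 (adjusted p = 0.672) and mdm4.S at -0.38 ± 0.19 (adjusted p = 0.681). The hexokinase gene hk1.L, among 51 glucose and hypoxia genes of which none passed on the probe set read for the list, was at 1.45 ± 0.27 (adjusted p = 0.0558). Of 86 matrix, adhesion and cell movement genes mmp14.L and epha2.L rose and hs3st1.L fell, while the chemokine receptor gene cxcr4.L was at -0.70 ± 0.17 (adjusted p = 0.159). Of 58 cytoskeleton genes none passed, and the calponin gene cnn2.S was at -1.02 ± 0.20 (adjusted p = 0.0595), with its homeolog cnn2.L at -0.27 ± 0.28 (adjusted p = 0.87). Nor did any of 93 cell cycle, 84 mitochondrial and 58 chaperone genes pass, with medians of -0.06, 0.02 and -0.02. The glucose and hypoxia, matrix and cytoskeleton lists had medians of -0.035, 0.03 and 0.01.

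Ribosomal protein genes had small and mostly positive values. None of 71 passed, yet 66 were positive and the median was 0.21, with 0.25, 0.24, 0.09 and 0.34 in pairs 1 to 4. Over all the settings tried the median ranged from 0.18 to 0.27. At an unadjusted p of 0.05, 4 of 71 were higher and 0 lower, beside 7.1% of all genes in either direction, led by rps9 at 0.46 ± 0.14 (adjusted p = 0.36) and rps2.L at 0.63 ± 0.21 (adjusted p = 0.46). Ribosomal protein genes are bright, and none had a mean signal under 16.

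The same contrast without Noggin shows which of these changes also occurred in caps without added Noggin. Its injected caps were labelled as harvested at stages 11.5 to 13.0, 12.5 to 13.0, 12.5 to 13.0 and 11.5 to 12.5 in pairs 1 to 4. The labels give no harvest stage for its controls, and pair 1 pooled 171 injected against 45 control caps. Stage and Noggin therefore cannot be told apart between the cultures. All 49 probe sets, which were selected on their change in Noggin, had the same sign without Noggin, as did 56.4% of all probe sets. Without Noggin 37 probe sets passed, 16 of the 49 among them. The nradd.L gene, at 1.73 in Noggin and 1.77 without it, hal.1.L at -1.74 and -1.69, and hmox1.L at 1.69 and 1.64 lay close together. Those of fgf8.L were 1.71 and 1.99, of vegt.L 1.64 and 1.81, of foxi1.L -1.66 and -1.94 and of bmp7.2.L -1.36 and -1.70. The epidermis list had a median of -0.20 in Noggin and -0.79 without it, a difference that was not tested over the list.

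**Figure D5:**
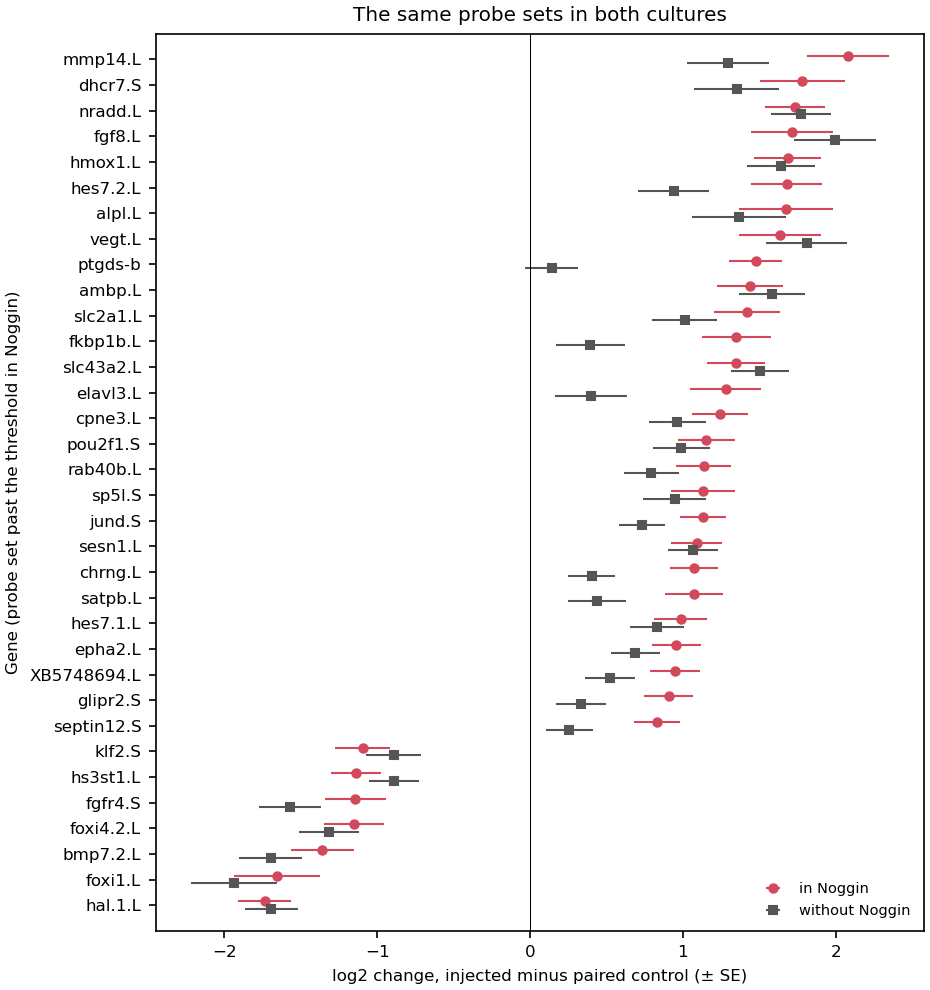
Fitted change ± SE of the 34 named probe sets that passed in Noggin (red circles) and the same probe sets without Noggin (grey squares), on a log2 axis of injected minus paired control. Both lie on the same side of 0 for every gene, and ptgds-b, fkbp1b.L and elavl3.L show some of the widest gaps.

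In limma's test of the difference between the 2 effects no probe set passed: the smallest adjusted p was 0.926, and 765 probe sets (4.94%) had an unadjusted p under 0.05. The differences are bounded only loosely. For nradd.L the effect in Noggin minus that without it was -0.04 (95% interval -0.65 to 0.57), for hal.1.L -0.04 (95% interval -0.58 to 0.50), for fgf8.L -0.28 (95% interval -1.11 to 0.55) and for mmp14.L 0.79 (95% interval -0.04 to 1.61). The smallest p in this test belonged to ptgds-b, with a difference of 1.34 (95% interval 0.80 to 1.87) and an adjusted p of 0.926. Its injected caps averaged 37.6 in Noggin and 24.3 without, and its controls 3.13 and 22.2. Of the 49 probe sets, 13 had an unadjusted p under 0.05 in this test, but they were selected for their change in Noggin, 1 of the effects compared. The next genes by p were tal1.S at -1.06 and baz2b.S at 1.1, both with mean signals of at most 20.8 in every group.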

How the data were processed

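Total RNA of pooled animal caps was hybridised to 16 single-colour Affymetrix Xenopus arrays. The deposited values are intensity, 1 linear signal per probe set. The authors' values share a mean of 150.02 on every array once the lowest and highest 2% are left out. The software that made them is not given in the sources used here. An array has no read depth, and the number of arrays limits the precision.

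Values were taken as log2(value + 16), quantile normalised over 16 arrays (medians before that were 5.79 to 6.35) and fitted with limma 3.58.1 in R 4.3.3 on all 16 arrays, with pair as a fixed block (8 pairs) and empirical Bayes moderation (6 residual degrees of freedom). Tests were two-sided and adjusted by Benjamini and Hochberg over 15491 probe sets, 120 controls of 15611 being left out, with no filter on low signal. The effect without Noggin and the difference of the effects come from the same fit. The level of 16 used to mark dim genes is the pseudocount.

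The injected sample whose title has no number was counted as number 1, since the titles use 2, 3 and 4. Deviations from group means correlated within pairs 1 to 4 at 0.453, 0.670, 0.647 and 0.462, and at most at 0.169 with another number. Arrays of the same number thus shared variation. Deviations cancel out within a group, which holds down the correlations with other numbers, and shared handling would also make arrays of the same number alike. That the samples are siblings therefore rests on the labels.

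The annotation gave 1 symbol to 9304 probe sets, several to 195 and none to 5992. RefSeq genes held 9227 of the symbols by Entrez identifier and renamed 2, and 7531 distinct symbols remained. Lists use 1 probe set per symbol, the one with the highest mean. All members and lists were chosen with earlier results of these data known, so they are described by counts and medians and not tested. Named genes are all probe sets past the threshold with 1 symbol, with every array's value for the 12 largest rises and the 7 falls, their other probe sets and homeologs, all neural fate genes, up to 4 members per other list that did not pass, and the 3 genes of smallest p in the test of the difference. Alternatives were no pair block or a random one, no further scaling or centring each array on its median, pseudocounts of 1 and 64, only probe sets above the median signal, only the 8 arrays in Noggin, and leaving out each pair. The fit was tested on 5 simulated data sets with 200 changed probe sets each. There it recovered 65% of changes of 1 and 97.6% of changes of 2 on the log2 scale. Of its calls on those data, 3.79% were false. These shares belong to the simulated spread and number of changes and need not hold for the deposited values. There egr1.L, at 2.58 ± 0.59, did not pass.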

Additional observations from a re-analysis of the deposited data

Results flagged for a closer look

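In 98 groups of 4 arrays, from 49 genes, the array farthest from the others was tested with Dixon's 95% critical value for its gap over the whole range, which chance passes about 1 time in 20. In 4 groups 1 array stood beyond it, about as many as that rate gives for 98 groups. The 49 genes include neural fate genes that did not pass, so they are not the 49 probe sets called. The signal of elavl3.L was 12.9 in control 4, with the next control at 2.43. That of ptgds-b was 9.04 in control 1, with the next at 1.70. For bmp7.2.L control 2 was at 1430.0 and the next control at 545, and for foxd4l1.2.L injected 4 was at 15.4 and the next injected array at 2.04. All but bmp7.2.L lie under a signal of 16.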

How the results depend on the processing

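In place of 49 probe sets in Noggin, 63 passed with the replicate block as random (40 shared), 44 with values as deposited (41 shared), 54 with each array centred on its median (45), 40 with a pseudocount of 64 (37), 44 of the 7745 probe sets above the median signal (35) and 40 in a fit of only the 8 arrays in Noggin (32). With no replicate block, 3 passed, and with a pseudocount of 1, 1 passed. Leaving out 1 pair gave 5 to 18 calls, in fits of fewer samples. None of the 49 changed sign in any of the 12 alternatives that tested it. They were selected on these same arrays and all moved the same way in 4 of 4 pairs. A reversal could therefore hardly occur, and the kept signs are no independent check. The difference between the effects with and without Noggin gave 0 calls in every setting run. Over the 4 fits that left out a pair, the change of foxd4l1.1.S ran from -0.241 to 0.619, gmnn.L from -0.061 to 0.283, sox11.S from -0.042 to 0.243, sox2.L from -0.129 to 0.496, sox3.S from -0.133 to 0.24 and zic2.S from -0.049 to 0.115, each negative without pair 2, and sox3.L from -0.197 to 0.376, negative without pair 4. The cause was not tested, but neural fate signals were low in control 2. Signal limits what can be read: 4413 of 15491 probe sets (28.5%) had a mean under 16 over all 16 arrays, where log2(value + 16) understates changes. The median standard error of a change in Noggin was 0.18.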

Other observations

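Besides the 49 probe sets that passed, 31 had an adjusted p between 0.05 and 0.1 in limma's fit, 19 higher and 12 lower. The rule for named genes does not cover all of them, and the following were chosen after their values were seen. Genes with a lower value were rgcc.S, a cell cycle regulator gene, at -1.0 ± 0.19 (adjusted p = 0.0633), prdm1.S, a zinc finger repressor gene, at -1.07 ± 0.22 (adjusted p = 0.0905), sall1.L, a zinc finger gene of the Spalt family, at -0.69 ± 0.14 (adjusted p = 0.0863), and kank2.L at -0.70 ± 0.14 (adjusted p = 0.0619) with mean signals under 16 in both groups. Higher values were those of cav3.2.S, a caveolin gene, at 0.86 ± 0.18 (adjusted p = 0.0803), and MGC114680 at 0.88 ± 0.17 (adjusted p = 0.0558). None of these passed the threshold.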
